A study of Mus musculus with 24 samples.

Results

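Collagens are the proteins that form the fibrils and sheets of the extracellular matrix. The collagen genes described here are all symbols of the form Col, number, a, number in the gene count tables, with the first table row taken for each symbol. This gave 44 collagen genes of 22926 symbols: 11 fibrillar collagens, 6 basement membrane collagens (Col4a1 to Col4a6) and 27 others. Transcript levels were measured by poly(A) RNA-seq in 24 libraries of mouse embryonic stem cells (ESCs), which are pluripotent cells kept undifferentiated by the cytokine LIF. The cells were feeder-free 129/SVj ESCs with eGFP inserted at Pou5f1 (Oct4), and all clones came from 1 parental clone, with CRISPR/Cas9 insertions or deletions in Tet genes in the knockouts. These genes encode the dioxygenases that oxidise 5-methylcytosine. The 5 genotypes were wild-type (WT), Tet1-/-, Tet2-/-, the Tet1 and Tet2 double knockout (DKO) and the Tet1, Tet2 and Tet3 triple knockout (TKO), each taken undifferentiated in LIF (day 0, D0) and after 6 days without LIF (day 6, D6).

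Each library was 1 clone. There were 3 clones of WT (O4.1, O4.2 and O4.13), 3 of Tet1-/- at each day, of which 2 were the same at both days, and 2 each of Tet2-/-, DKO and TKO, the same at both days. Knockout libraries are named here by the replicate number in the labels and WT clones by name. A number marks the same clone at both days in Tet2-/- and TKO, whereas the numbers of the DKO clones are exchanged between the days and replicate 2 of Tet1-/- is a different clone at each day. The days stand in separate count tables, and whether their libraries were made and sequenced together is not given in the sources used here, so day and table cannot be told apart. Differences between clones of a genotype are therefore the error in all tests below, and with 2 clones in a group that error is poorly known. Library totals ranged from 18400463 to 37290208 counts, so the 3 counts taken as the detection floor of a library stood for 0.0825 to 0.152 CPM, the count of a gene scaled to the TMM-adjusted library total. The edits listed by the study are mostly small indels at the guide site, and where a single allele is listed, as in both Tet2-/- clones, the other may carry a larger one. Transcripts of the edited genes can still be counted, so Tet levels are a limited check of the labels. Tet1 lay at 92.7, 124 and 355 CPM in the Tet1-/- clones at D0 and at 222, 367 and 427 CPM in WT. Tet2 lay at 20.9 and 23.0 CPM in Tet2-/- and between 87.9 and 94.2 CPM in WT at D0, and Tet3 at 2.86 and 4.45 CPM in TKO and between 5.0 and 7.99 CPM in WT at D0. Of the edited genes, edgeR called Tet2 lower at D0 in Tet2-/- (log2 difference -2.08 ± 0.52, adjusted p = 0.0299) and TKO (-1.86 ± 0.51, adjusted p = 0.0426), and called none at D6, where Tet2 in Tet2-/- differed from WT by 0.23 ± 0.25 and Tet1 in Tet1-/- by 0.29 ± 0.45.

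Collagen chains wind around each other into a triple helix. Fibrillar collagens (types I, II, III, V, XI, XXIV and XXVII) pack into cross-banded fibrils, whereas the 6 chains of type IV form the network of basement membranes. In their heterotrimers, types I and V join Col1a1 with Col1a2 chains, and Col5a1 with Col5a2 chains. The remaining classes cover collagens that decorate fibrils (FACIT), beaded filaments (type VI), short chain networks (VIII and X), membrane-spanning collagens (XIII, XVII, XXIII and XXV), multiplexins (XV and XVIII), anchoring fibrils (VII) and 2 unclassed genes (Col26a1 and Col28a1). In the early mouse embryo, type IV collagen belongs to the first basement membranes and is made in bulk by primitive and parietal endoderm, and type I collagen is the main product of mesenchyme.

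All 44 genes could be placed on the mm9 genome with the GENCODE vM1 annotation. The 6 type IV genes stood as 3 head-to-head pairs. Col4a1 (chromosome 8, 11198423 to 11312826, minus strand) and Col4a2 (chromosome 8, 11312805 to 11449287, plus strand) overlapped by 22 bases at their starts. Col4a4 and Col4a3 started 71 bases apart on chromosome 1, and Col4a6 (chromosome X, 137599946 to 137908619, minus strand) and Col4a5 (chromosome X, 137909928 to 138123778, plus strand) started 1308 bases apart. Col3a1 and Col5a2 lay tail to tail on chromosome 1 with 24614 bases between them. Whether reads were counted by strand is not given in the sources used here, which bears on the overlap of Col4a1 with Col4a2 and on Col9a3, the 1 collagen whose exons overlapped another gene (Tcfl5, opposite strand) by more than 5% of their length, at 6.07%.

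Promoter sequences are shown for 4 of the 14 collagens that were lower in Tet2-/- than in WT cells at D6. They are both chains of the X-linked type IV pair, and Col1a2 and Col5a1 for types I and V, and were picked after their values were seen as the chains that the results below describe most fully. They are the 250 bases before the RefSeq start of each gene (GRCm38.p6), read 5′ to 3′ on the gene's strand, and lie at chr6:4505368-4505617 (plus, Col1a2), chr2:27886175-27886424 (plus, Col5a1), chrX:141475169-141475418 (plus, Col4a5) and chrX:141474077-141474326 (minus, Col4a6). Capitals mark GGGCGG (GC box), CCAAT and TATAAA, searched on both strands, so a match on the opposite strand is printed as its reverse complement.
Col1a2: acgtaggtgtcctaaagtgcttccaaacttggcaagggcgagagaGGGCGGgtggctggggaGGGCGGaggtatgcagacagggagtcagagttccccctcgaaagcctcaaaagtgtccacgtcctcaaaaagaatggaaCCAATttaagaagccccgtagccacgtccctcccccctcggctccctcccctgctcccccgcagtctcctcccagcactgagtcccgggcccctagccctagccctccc
Col5a1: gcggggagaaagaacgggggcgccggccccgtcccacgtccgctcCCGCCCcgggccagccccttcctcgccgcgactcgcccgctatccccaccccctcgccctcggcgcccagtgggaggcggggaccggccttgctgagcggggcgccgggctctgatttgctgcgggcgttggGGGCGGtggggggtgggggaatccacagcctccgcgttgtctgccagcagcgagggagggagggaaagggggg
Col4a5: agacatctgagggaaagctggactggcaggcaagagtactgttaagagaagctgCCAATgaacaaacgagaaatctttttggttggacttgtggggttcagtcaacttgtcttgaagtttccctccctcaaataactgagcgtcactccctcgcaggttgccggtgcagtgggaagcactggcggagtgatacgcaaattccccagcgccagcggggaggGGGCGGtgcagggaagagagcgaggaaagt
Col4a6: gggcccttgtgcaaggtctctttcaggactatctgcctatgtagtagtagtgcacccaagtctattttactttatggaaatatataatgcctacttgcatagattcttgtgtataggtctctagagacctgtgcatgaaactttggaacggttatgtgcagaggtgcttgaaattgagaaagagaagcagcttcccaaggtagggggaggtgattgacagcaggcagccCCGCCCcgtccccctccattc

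All 4 windows held GGGCGG, at 205 and 188 bases before the start in Col1a2, 205 and 73 in Col5a1, 30 in Col4a5 and 21 in Col4a6. CCAAT stood 109 bases before the start in Col1a2 and 196 in Col4a5, and none of the 4 held TATAAA. These 4 do not stand for all 14 lower collagens, of which 12 had an entry. Of those 12, 10 held GGGCGG (not Col24a1 or Col6a1), 4 held CCAAT and 1 held TATAAA (Col11a2). The windows differed in CpG content, the substrate sequence of cytosine methylation, from 3 CpG in Col4a6 to 28 in Col5a1. Of the 44 collagens, 35 had an entry, with a median of 10 CpG beside 6 over 27025 genes. GGGCGG was present in 60.0% of the collagen windows and 32.9% of all windows, CCAAT in 34.3% and 34.5%, and TATAAA in 14.3% and 13%. These matches are letters in a window and were not tested as binding sites.

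At D0 a small set of collagens made up most collagen counts. Summed over the 44 genes, collagens took 508.5 to 554.5 CPM in the WT clones, and 19 of 44 reached a mean of 1 CPM. Col18a1, the multiplexin of basement membranes that gives rise to endostatin, took the most counts of any collagen in every library and held 55.2% to 67.8% of collagen CPM in WT at D0. Per kilobase of transcript, the order of mean WT levels at D0 was Col18a1 (53.3 CPM per kb), Col4a1 (14.6), Col4a2 (4.32), Col5a1 (2.79) and Col9a2 (2.64). Over the 3 WT clones the first 3 kept separate ranges on this scale, 44.3 to 59.0 for Col18a1, 11.5 to 18.3 for Col4a1 and 3.59 to 4.89 for Col4a2, whereas Col5a1 (2.66 to 3.01) and Col9a2 (2.49 to 2.81) overlapped. The chains of type I collagen were low but above the floor, Col1a1 at 1.64 to 2.33 CPM and Col1a2 at 0.360 to 0.993 CPM. Col3a1 had 2 counts in the 3 WT libraries together.

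**Figure D1:**
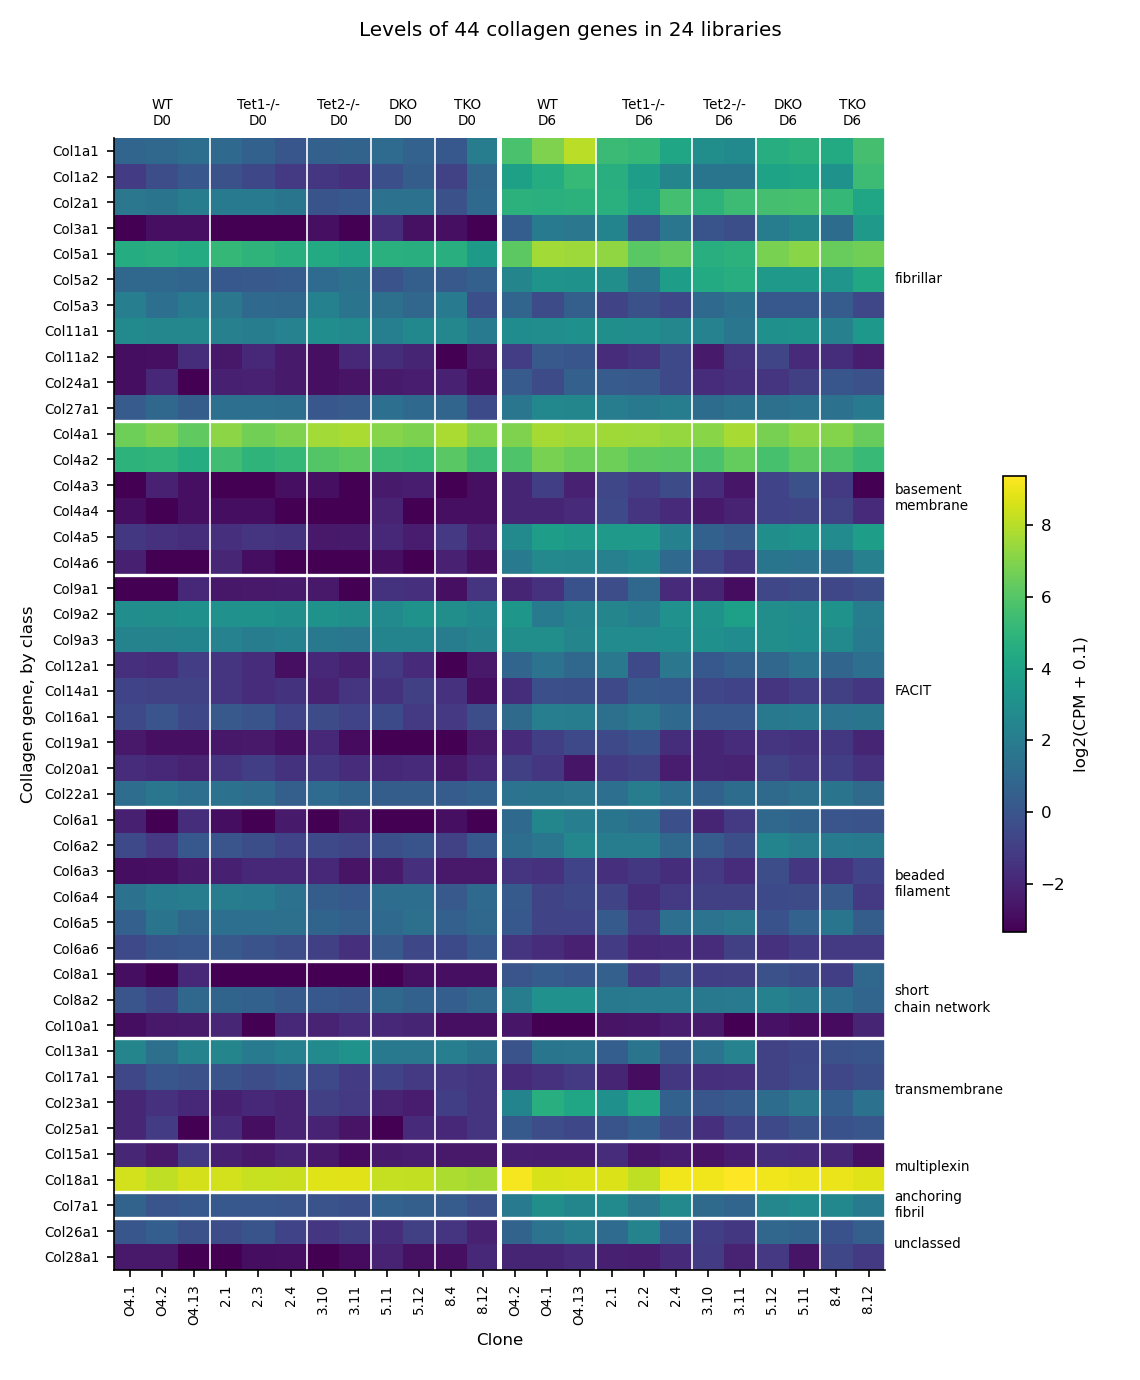
Level of each of the 44 collagens (rows, grouped by class) in each of the 24 libraries (columns), as log2 of CPM plus 0.1. Col18a1, Col4a1 and Col4a2 were high at both days, and the rows of Col1a1, Col1a2, Col4a5, Col4a6 and Col23a1 were darker (lower) at D0 than in WT at D6.

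Most collagens rose in WT cells over 6 days without LIF, in the fibrillar, basement membrane and other classes. Changes were called with edgeR's quasi-likelihood test over all 24 libraries where they exceeded 2-fold with a Benjamini-Hochberg adjusted p under 0.05, and by this rule 26 of 42 tested collagens rose and 5 fell from D0 to D6 in WT. Over all 15639 genes tested, 20.7% rose and 13.3% fell (34% in all), against 61.9% and 11.9% of the collagens. The median log2 change was 2.22 over the tested collagens and 0.01 over all genes. The number of collagens at a mean of 1 CPM or more went from 19 to 28, and the collagen sum from at most 554.5 CPM at D0 to between 998 and 1314 CPM at D6. Among the fibrillar collagens 9 of 11 rose (median log2 change 2.97), among basement membrane collagens 4 of 6 rose (2.11), and among the others 13 of 25 tested rose and 4 fell (1.5). Col10a1 and Col15a1 had too few counts to be tested, each under 0.35 CPM in every library.

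Col1a1 (chromosome 11, 94797538 to 94814356, plus strand), the major chain of type I collagen, rose in all 3 clones. Its level at D6 was 53.3, 119 and 261 CPM in WT clones O4.2, O4.1 and O4.13, which places all D6 clones far above the D0 range but spreads them widely. The log2 change was 6.22 ± 0.58 (SE; adjusted p = 4.25e-08). Its partner chain Col1a2 (chromosome 6, 4454814 to 4491543, plus strand) reached 14.5, 23.3 and 36.0 CPM in the same order of clones, a log2 change of 5.16 ± 0.67. Col5a1, the major chain of the type V collagen that starts fibrils, went from between 22.3 and 25.3 CPM to 71.0, 197 and 182 CPM (log2 change 2.67 ± 0.34), with clone O4.2 again lowest. Col5a2 rose from between 1.68 and 1.80 CPM to between 5.44 and 9.35 CPM (2.18 ± 0.39). Col2a1, the cartilage fibrillar collagen that is also made in early embryos, went from between 2.86 and 3.93 CPM to between 26.5 and 28.3 CPM (3.06 ± 0.33), the tightest D6 values of the fibrillar genes above 10 CPM. Col3a1 stood at 2 counts at D0 and 207 at D6 over the 3 libraries, a ratio of 95.1 with a 95% counting interval of 26.0 to 790. Col11a2, Col24a1 and Col27a1 also rose. Col5a3, the minor type V chain, fell from between 2.4 and 4.12 CPM to between 0.657 and 1.63 CPM, while Col11a1 was not called (5.74 to 6.52 and 7.04 to 8.03 CPM, log2 change 0.31 ± 0.26).

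Basement membrane collagens split by pair. Col4a1 and Col4a2 had the highest type IV levels at D0. Col4a1 went from between 76.3 and 121 CPM to 118, 204 and 184 CPM in O4.2, O4.1 and O4.13 (log2 change 0.80 ± 0.23, adjusted p = 0.00511, under 2-fold and so not called). Col4a2 rose from between 23.2 and 31.5 CPM to between 58.7 and 114 CPM (1.66 ± 0.26). The X-linked pair started near the floor. Col4a5 went from between 0.216 and 0.320 CPM to 6.53, 13.2 and 11.4 CPM (log2 change 5.28 ± 0.44; adjusted p = 1.09e-08), and Col4a6 from 3 counts to 407 over the 3 libraries, a ratio of 125 with a 95% counting interval of 42.3 to 607. Col4a4 was called higher from 2 to 13 counts, a ratio of 5.97 (1.35 to 54.5), and Col4a3 was not called. Even at D6, Col4a5 and Col4a6 remained well under Col4a1 per kilobase, where the order of WT means was Col18a1 (71.9 CPM per kb), Col4a1 (25.5), Col1a1 (24.3), Col5a1 (17.8) and Col4a2 (13.7). Over the clones Col18a1 stood apart (60.5 to 90.4), and Col4a1 (17.9 to 30.8) lay above Col4a2 (9.11 to 17.7). Col1a1 (8.99 to 43.9) and Col5a1 (8.45 to 23.4) overlapped both and each other, so their places in this order are not separated.

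Outside these classes, the transmembrane collagen Col23a1 rose most, from between 0.160 and 0.248 CPM to 5.23, 25.5 and 17.2 CPM in O4.2, O4.1 and O4.13 (log2 change 6.32 ± 0.82). The type VI beaded filament genes moved in both directions. Col6a1, Col6a2 and Col6a3 rose, Col6a1 from 8 counts over the 3 D0 libraries to between 1.92 and 5.56 CPM (5.07 ± 0.71). Col6a4, Col6a5 and Col6a6, which lie side by side on chromosome 9 in the same direction, fell: Col6a4 from between 2.60 and 3.84 CPM to between 0.506 and 1.09 CPM (log2 change -2.18 ± 0.36), Col6a5 by 1.57 ± 0.49 and Col6a6 by 1.98 ± 0.44 on the log2 scale. Col17a1, the hemidesmosome collagen, was the remaining collagen that fell (-1.51 ± 0.43). Col7a1, the anchoring fibril collagen, and Col8a2, a short chain collagen, rose in all 3 clones, by 2.27 ± 0.31 and 2.64 ± 0.34.

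**Figure D2:**
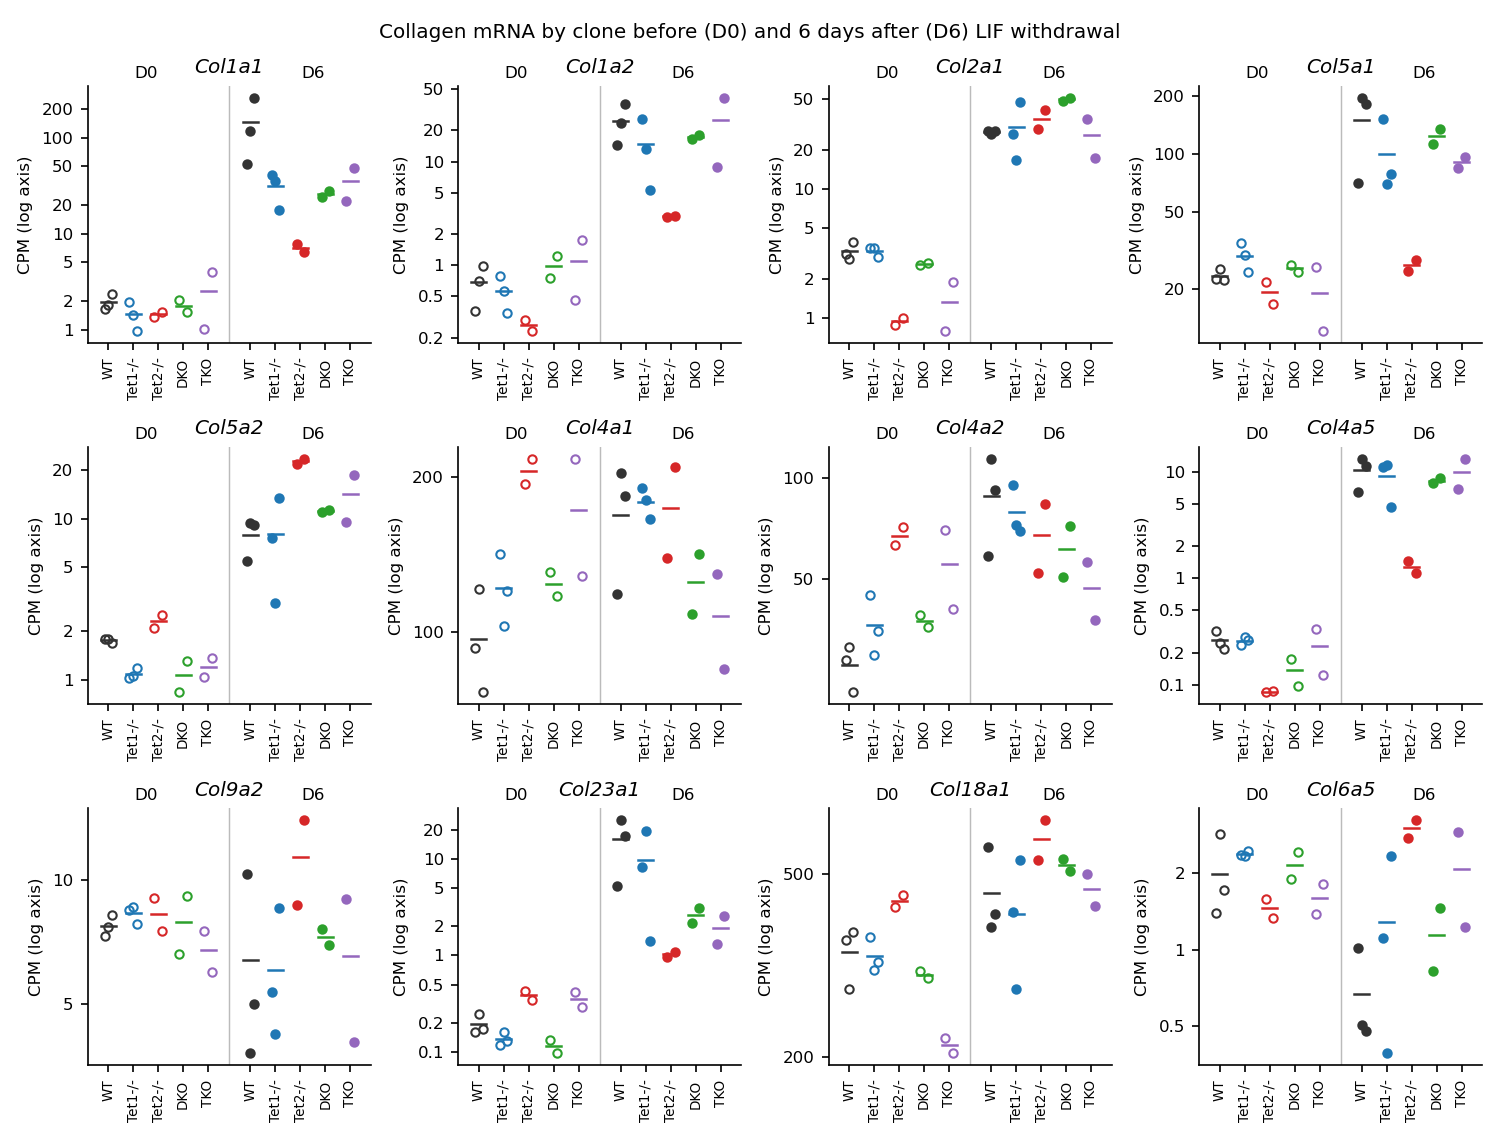
CPM (log axis) of the 11 collagens with a group mean of at least 10 CPM and of Col6a5, by genotype, open circles for D0 and filled circles for D6, 1 circle per clone and a bar at the group mean. Tet2-/- clones at D6 were the lowest for Col1a1 (6.49 and 7.73 CPM), Col1a2, Col5a1, Col4a5 and Col23a1 and the highest for Col5a2 (21.8 and 23.6 CPM).

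The other genotypes raised collagens as well, with Tet2-/- clones raising the fewest. From D0 to D6, 25 collagens rose and 5 fell in Tet1-/- (19.9% and 11.2% of all genes tested, 31.1% in all), 15 rose and 1 fell in Tet2-/- (12.7% and 6.44%, 19.1% in all), 23 rose and 3 fell in DKO (18.6% and 10.6%, 29.2% in all) and 23 rose and 2 fell in TKO (16.8% and 8.63%, 25.4% in all). The median log2 change of the collagens was 2.11 in TKO, 1.90 in Tet1-/-, 1.70 in DKO and 1.2 in Tet2-/-. With collagens at 0 counts set at their bound it was 1.14 in Tet2-/- and did not move in the others. The Tet2-/- total fell when either Tet2-/- library at D0 was left out, a fit that leaves 1 clone, so the fall says little about collagens. A total that is smaller in 1 genotype does not show a different change, which the tests of the difference below address gene by gene.

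Several collagens rose in all 5 genotypes. Col1a1, Col1a2, Col2a1, Col3a1, Col5a2, Col12a1, Col4a4, Col4a5, Col4a6, Col7a1 and Col8a1 were called higher in each. In Tet2-/- the calls of Col1a1, Col1a2 and Col3a1 were among those lost without replicate 2 at D0. The fitted rise of Col1a1 ranged widely, with a log2 change of 2.27 ± 0.66 in Tet2-/- beside 4.41 ± 0.56 in Tet1-/-, 3.83 ± 0.65 in TKO and 3.84 ± 0.67 in DKO. For Col2a1 the rise was 5.16 ± 0.46 in Tet2-/- and, in TKO, DKO and Tet1-/-, 4.27 ± 0.44, 4.2 ± 0.42 and 3.15 ± 0.33, so that its largest fitted rise was in the genotype with the smallest Col1a1 rise. Col4a5 rose by 3.82 ± 0.66 in Tet2-/- and by between 5.10 and 5.82 in the other knockouts.

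Many of the largest rises in the knockouts rested on few D0 counts. In Tet1-/- these were Col3a1 (0 counts at D0 and 300 at D6, at least 77.6-fold higher), Col8a1 (0 and 80 counts, at least 20.7-fold higher), Col23a1 (log2 change 6.08 ± 0.85), Col4a6 (5.81 ± 0.71) and Col6a1 (3 and 192 counts, ratio 49.7, 16.7 to 243). Those of Tet2-/- were Col4a6 (0 and 28 counts, at least 8.60-fold higher), Col8a1 (0 and 26 counts, at least 7.99-fold higher), Col3a1 (1 and 51 counts, ratio 47.0, 8.07 to 1893), Col2a1 and Col4a4 (0 and 7 counts, at least 2.15-fold higher). In DKO they were Col6a1 (0 and 110 counts, at least 23.9-fold higher), Col4a6 (1 and 192 counts, ratio 125, 22.2 to 4964), Col19a1 (0 and 18 counts, at least 3.91-fold higher), Col4a5 and Col3a1 (log2 change 5.04). In TKO they were Col3a1 (1 and 291 counts, ratio 266, 47.4 to 10550), Col12a1 (2 and 103 counts, ratio 47.1, 12.7 to 394), Col4a5, Col4a6 (5.28 ± 0.85) and Col6a1 (1 and 46 counts, ratio 42.1, 7.18 to 1698). Bounds set the floor of 3 counts over the group, and intervals are 95% and cover counting error only. Col3a1 and Col8a1, chains of fibrils and of short chain networks, were thus at or under 6 counts per group at D0 in every genotype and reached 0.355 to 11 CPM at D6.

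The falls were fewer. Col6a4 fell in WT, Tet1-/- (log2 change -3.22 ± 0.38), Tet2-/- (-1.39 ± 0.47) and DKO (-1.87 ± 0.44) and was -1.0 in TKO, where it was not called. Col6a6 fell in WT, Tet1-/- (-1.79 ± 0.41), DKO (-1.46 ± 0.50) and TKO (-1.26 ± 0.50). The TKO call was lost in 7 of 10 alternatives, DESeq2 among them (adjusted p up to 0.263), and the DKO call in 2 of 10, whereas those in WT and Tet1-/- were kept in all 12. Col13a1, a transmembrane collagen, fell in Tet1-/- (-1.40 ± 0.42), DKO (-2.74 ± 0.58) and TKO (-2.10 ± 0.56). With the clone as a block, edgeR also called it lower in Tet2-/- (-1.01, adjusted p = 0.00901). Col5a3 (-1.91 ± 0.47) and Col17a1 (-2.25 ± 0.44) fell in Tet1-/- besides WT. Of the 5 genotypes, Col18a1 was called in TKO alone (1.13 ± 0.22), from 204 and 220 CPM to 426 and 500 CPM. Its log2 change in TKO minus that in WT was 0.71 ± 0.28 (adjusted p = 0.14), so a difference from WT was not called.

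**Figure D3:**
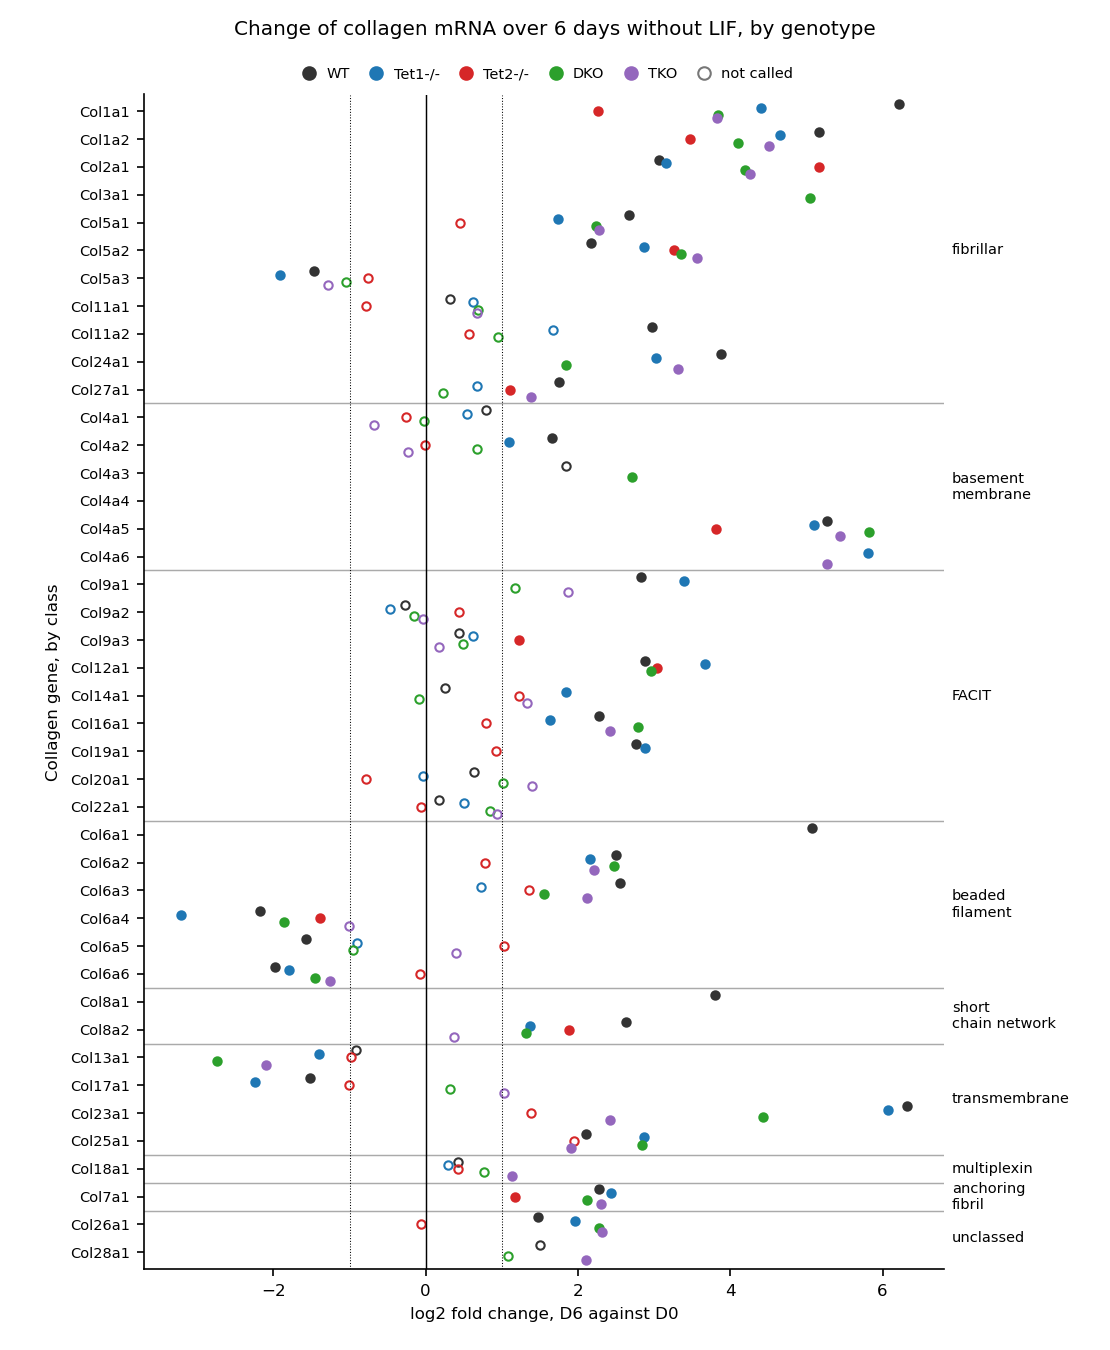
Fitted log2 fold change from D0 to D6 for 42 tested collagens, grouped by class, 1 colour per genotype; filled circles passed adjusted p under 0.05 and 2-fold (dotted lines), open circles did not. The 31 values with 3 or fewer counts in a group are not drawn. The red Tet2-/- circle lies left of the others for Col1a1 (2.27), Col1a2, Col5a1, Col16a1, Col23a1 and Col4a5 and right of them for Col2a1 (5.16).

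The knockouts were compared with WT at D6 to ask whether collagen levels of differentiating cells differ by genotype, with the same 3 WT libraries in each comparison. In Tet2-/- 14 of 42 tested collagens were lower and 2 higher than in WT at D6, against 9.45% lower and 4.81% higher (14.3% in all) over 15435 genes tested (33.3% and 4.76% of the collagens). The median log2 difference was -0.91 over the collagens and -0.03 over all genes. By class, 6 of 11 fibrillar collagens were lower and 1 higher, 2 of 6 basement membrane collagens were lower, and 6 of 25 others were lower and 1 higher. No collagen was called in Tet1-/-, DKO or TKO at D6, where no gene at all was called by edgeR (0% of genes in each, with 1949, 2251 and 3629 genes and 3, 9 and 13 collagens at an unadjusted p under 0.05). DESeq2 on the same counts called 1 collagen lower in Tet1-/- (Col1a1), 2 in DKO (Col1a1 and Col13a1) and 4 in TKO (Col1a1, Col23a1, Col6a1 and Col8a2), where it called 0.118%, 0.576% and 2.07% of all genes lower. The 16 calls in Tet2-/- rested on both clones, and most or all were lost without either one. Such a fit leaves 1 clone, taken to vary like the other groups, so the loss says little about collagens.

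Type I collagen was lowest in Tet2-/-. Col1a1 lay at 7.73 and 6.49 CPM in Tet2-/- replicates 1 and 2 at D6, with both clones below all other D6 libraries, and these held 17.8, 35.1 and 40.5 CPM in Tet1-/-, 24.2 and 27.8 CPM in DKO, 21.7 and 48.7 CPM in TKO, and at least 53.3 CPM in WT. The log2 difference from WT was -4.36 ± 0.68 in Tet2-/- (adjusted p = 0.00444). For TKO it was -2.02 ± 0.60 (adjusted p = 0.0938), for DKO -2.48 ± 0.61 (adjusted p = 0.189) and for Tet1-/- -2.21 ± 0.51 (adjusted p = 0.318). All 9 knockout clones were thus below all 3 WT clones. Col1a2 in Tet2-/- was 2.93 and 2.98 CPM, again below every other library, of which the next was 5.38 CPM in Tet1-/- replicate 3 (log2 difference -3.08 ± 0.76 from WT, adjusted p = 0.0159). For Col1a2 the other knockouts overlapped WT, and the TKO clones lay on both sides of the WT range at 8.86 and 41.3 CPM.

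Of the type V collagen chains, Col5a1 was lower and Col5a2 higher in Tet2-/- than in WT at D6. Col5a1 (chromosome 2, 27741945 to 27895034, plus strand) was 24.9 and 28.3 CPM at D6, beside 21.7 and 16.7 CPM at D0 (log2 change 0.46 ± 0.40, not called) and below every other D6 library (70.1 CPM or more). Its log2 difference from WT was -2.52 ± 0.44 (adjusted p = 0.00556). Col5a2 (chromosome 1, 45431166 to 45560127, minus strand) was 21.8 and 23.6 CPM in the same clones, above every other D6 library, of which the next was 18.8 CPM in TKO replicate 2 (log2 difference from WT 1.49 ± 0.48, adjusted p = 0.0399). The ratio of Col5a1 to Col5a2 counts was therefore 1.14 and 1.2 in Tet2-/- at D6, against 13 to 21.0 in WT. In the other genotypes it was 5.18 and 8.88 (TKO), 10.2 and 12 (DKO) and 5.88 to 23.2 (Tet1-/-). At D0 this ratio was 10.4 and 6.57 in Tet2-/-, 12.6 to 14.2 in WT, 24.7 and 8.85 in TKO, 31.9 and 18.8 in DKO and 20.7 to 33.6 in Tet1-/-. It was therefore lower at D6 than at D0 in each knockout clone sampled at both days, and not in Tet2-/- alone. These ratios of counts, not per length, are given with no test. The call of Col5a2 was lost when any 1 of the 5 libraries was left out.

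The ratio of Col1a1 to Col1a2 counts also varied, from 3.68 to 7.23 in WT at D6 down to 1.18 and 2.45 in TKO, 1.47 and 1.55 in DKO, 2.18 and 2.63 in Tet2-/- and 1.58 to 3.31 in Tet1-/-. All 9 knockout clones lay below the 3 WT clones at D6. At D0, where Col1a2 was low, the ratio was 4.57 and 6.63 in Tet2-/- and 2.35 to 4.56 in WT. In the other knockouts it was 1.24 to 2.75 at D0. The head-to-head pair Col4a1 and Col4a2, by contrast, kept its ratio between 3.02 and 3.83 in all 12 libraries at D0 and between 1.79 and 2.66 in all 12 at D6. The ratio was lower at D6 than at D0 in every library, so that Col4a2 gained on Col4a1 in all 5 genotypes.

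**Figure D4:**
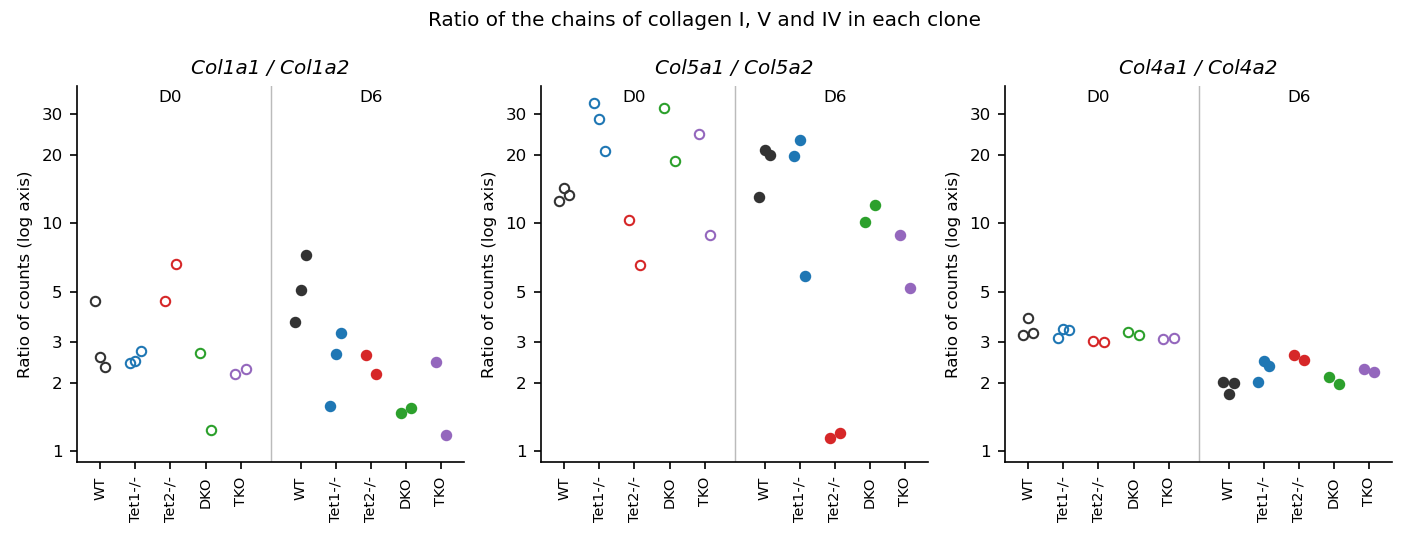
Ratio of counts of the paired chains of collagen I, V and IV (log axis) in each clone, open at D0 and filled at D6, by genotype. The Col5a1 to Col5a2 ratio was 1.14 and 1.2 in the Tet2-/- clones at D6, while the Col4a1 to Col4a2 ratio lay between 1.79 and 2.66 in all D6 libraries.

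Other fibrillar collagens lower in Tet2-/- at D6 were Col24a1 (0.203 and 0.245 CPM against 0.657 to 1.37 in WT, log2 difference -2.27 ± 0.48), Col11a2 (-2.16 ± 0.73) and Col27a1 (2.15 and 2.56 CPM against 3.01 to 5.92, -1.06 ± 0.31). The calls of Col11a2 and Col27a1 were each lost in 5 of 12 alternatives, among them the replicate block and leaving out WT clone O4.1 or O4.13. Col11a2 was low, with a mean of 0.0304 CPM per kb in Tet2-/- at D6. Col2a1 was not called at D6 in any knockout, with 29.0 and 41.1 CPM in Tet2-/- and 26.5 to 28.3 CPM in WT (log2 difference 0.31 ± 0.37), nor were Col3a1 (-1.75 ± 0.82, adjusted p = 0.126), Col5a3 and Col11a1. Thus the lower fibrillar genes were those of type I, the major type V chain and 3 lowly expressed genes.

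Among basement membrane collagens the X-linked pair stood apart. Col4a5 was 1.45 and 1.12 CPM in Tet2-/- at D6 and 6.53 to 13.2 CPM in WT (log2 difference -3.03 ± 0.50, adjusted p = 0.00482). Col4a6 was 0.552 and 0.316 CPM against 3.67 to 6.27 CPM (-3.59 ± 0.57, adjusted p = 0.00474). In both genes all other knockout clones lay above the Tet2-/- clones, the nearest being Tet1-/- replicate 3 with 4.65 and 1.90 CPM. For Col4a1 the log2 difference in Tet2-/- was 0.02 ± 0.25 and for Col4a2 it was -0.40 ± 0.30, neither called. Per kilobase, the order in Tet2-/- at D6 was Col18a1 (94.1 CPM per kb), Col4a1 (26.3), Col4a2 (10.5), Col2a1 (6.87) and Col9a2 (3.88). The range of Col9a2 over the 2 clones (2.97 to 4.78) overlapped those of Col5a2 (3.29 to 3.56) and Col5a1 (2.96 to 3.37), so these 3 are not separated in this order. Col18a1 was 536 and 657 CPM there and 384 to 573 CPM in WT and was not called.

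In the remaining classes 6 collagens were lower in Tet2-/-. Col23a1 was 0.959 and 1.09 CPM against 5.23 to 25.5 CPM in WT (log2 difference -3.98 ± 1.0, adjusted p = 0.0174), and Col6a1 was 0.145 and 0.351 CPM against 1.92 to 5.56 CPM (-4.01 ± 0.70, adjusted p = 0.00560). Col6a2 (-1.96 ± 0.48), Col7a1 (-1.64 ± 0.39), Col16a1 (-1.80 ± 0.37) and Col26a1 (-2.96 ± 0.65) followed, Col26a1 being a secreted protein with collagen repeats and Col16a1 a FACIT collagen. Col6a5, a type VI chain, was higher: 2.76 and 3.26 CPM against at most 1.0 CPM in WT (2.13 ± 0.63, adjusted p = 0.0301). In Col23a1 the DKO (2.17 and 3.13 CPM) and TKO clones (1.31 and 2.56 CPM) also lay below all WT clones, with log2 differences of -2.60 ± 0.92 and -3.05 ± 0.96 that edgeR did not call. Col8a2 in TKO was 2.36 and 1.67 CPM, below the WT clones at 3.99 to 8.50 CPM (-1.76 ± 0.33, adjusted p = 0.0641). Without WT clone O4.2, 6 collagens including Col8a2 were called lower in TKO, and with them 2.24% of all genes, beside 0% with every library.

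**Figure D5:**
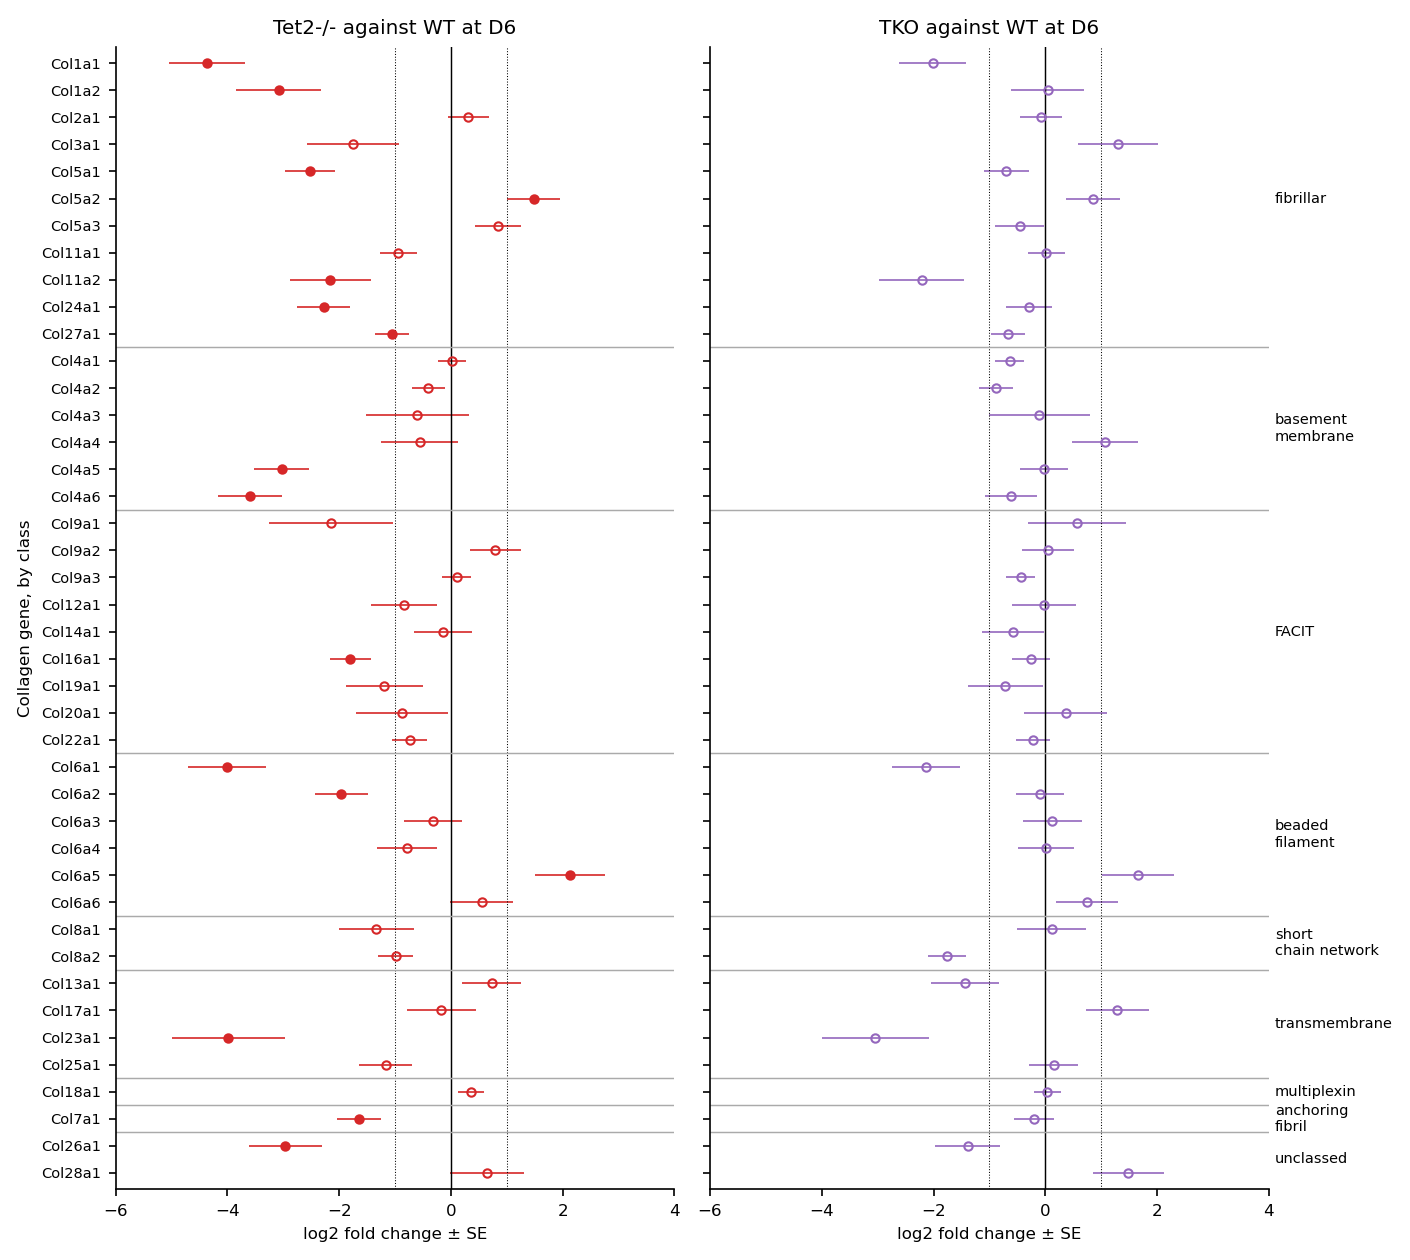
Log2 fold change with its standard error of the 42 tested collagens in Tet2-/- (2 clones, left) and TKO (2 clones, right) against WT (3 clones) at D6; filled circles passed adjusted p under 0.05 and 2-fold (dotted lines). In Tet2-/- 14 circles are filled on the left side, down to -4.36 for Col1a1, and 2 on the right (Col5a2 and Col6a5), while 0 are filled in TKO.

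At D6 the pluripotency, endoderm and smooth muscle marker sums of Tet2-/- lay outside those of all other libraries, whereas mesenchyme and cartilage sums did not. Over 10 pluripotency genes, including Pou5f1, Nanog and Sox2, the summed level at D6 was 3051 to 3300 CPM in Tet2-/-, 935 to 2665 CPM in WT, and in the other knockouts from 1108 to 2719 CPM. All 10 fell in WT from D0 to D6 (13.3% of all genes) and 4 of 10 in Tet2-/- (6.44%). Between Tet2-/- and WT at D6, 4.81% of all genes were higher and 9.45% lower, which is the background for the counts that follow. Of the 10, 1 (Pou5f1) was called higher in Tet2-/- and none lower, and the change over the 6 days was higher than in WT for 2 (Pou5f1 and Zfp42; 3.54% of all genes). WT clone O4.2, the clone with the lowest Col1a1, Col5a1 and Col23a1, held the highest of the WT values (2665 CPM) and the lowest WT sums for endoderm (157 CPM) and mesenchyme (1733 CPM). Over 10 genes of primitive and parietal endoderm, such as Gata6, Gata4 and Sox17, the sum was 37.3 to 56.6 CPM in Tet2-/- and 157 to 436 CPM in WT at D6, and 7 of 10 were lower in Tet2-/- with none higher. For 11 mesenchyme genes the sum was 1231 to 1233 CPM in Tet2-/- and 1733 to 4213 CPM in WT. Of 9 tested, 2 were lower (Pdgfrb and Twist2), and Twist1 was not called (-0.18 ± 0.34). In the other knockouts the sum was 919 and 1364 CPM (DKO), 1038 and 2844 CPM (TKO) and 1060 to 3738 CPM (Tet1-/-). Several of these clones lay below Tet2-/-. Over 6 smooth muscle genes the sum was 129 to 136 CPM in Tet2-/- and 279 to 444 CPM in WT, with 3 of 6 lower. It was 486 and 597 CPM in DKO, 357 and 615 CPM in TKO and 230 to 477 CPM in Tet1-/-. Over 7 cartilage genes the Tet2-/- and WT sums overlapped, at 13.5 to 14.7 and 13 to 18.5 CPM, with 2 of 6 tested lower. The part of these cell types in the collagen differences was not tested, and in bulk RNA fewer cells of a type cannot be told apart from less RNA per cell.

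Undifferentiated cells were compared in the same way at D0, where 25 collagens had enough counts to be tested. Tet2-/- had 2 collagens higher and 2 lower than WT, against 0.816% and 2.37% of 14456 genes (3.19% in all). Col4a2 was 63.4 and 71.6 CPM in Tet2-/- and 23.2 to 31.5 CPM in WT (log2 difference 1.26 ± 0.22, adjusted p = 0.0103). Col4a1 was 194 and 216 CPM against 76.3 to 121 CPM (1.07 ± 0.22, adjusted p = 0.0157). Both Tet2-/- clones were above all WT, Tet1-/- and DKO clones in both genes, while TKO replicate 1 (217 and 70.0 CPM) reached their level and TKO replicate 2 (128 and 40.9 CPM) did not. The TKO differences were 0.98 ± 0.22 for Col4a2 and 0.82 ± 0.22 for Col4a1, with adjusted p = 0.0193 and 0.0368 but under 2-fold. The endoderm marker sum at D0 was 11.7 CPM in both Tet2-/- clones, 11.9 to 12.6 CPM in WT, and 10.5 and 26.1 CPM in TKO replicates 1 and 2.

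Col2a1 and Col6a4 were called lower at D0 in Tet2-/- and in TKO, but the TKO calls rested on replicate 1. Col2a1 was 0.897 and 1.0 CPM in Tet2-/-, 0.797 and 1.91 CPM in TKO and 2.86 to 3.93 CPM in WT. Its log2 difference from WT was -1.79 ± 0.32 in Tet2-/- (adjusted p = 0.0107) and -1.29 ± 0.31 in TKO (adjusted p = 0.0262). Col6a4 was 1.24 and 1.0 CPM in Tet2-/-, 1.05 and 1.91 CPM in TKO and 2.60 to 3.84 CPM in WT (-1.58 ± 0.31 and -1.17 ± 0.30). In TKO Col26a1 was lower too, at 0.294 and 0.124 CPM against 0.777 to 1.28 CPM (-2.26 ± 0.49, adjusted p = 0.0187), so TKO had 3 lower collagens and 0 higher (2.12% and 1.03% of genes, 3.15% in all). Both comparisons used the same WT libraries. Col18a1 was also below WT in TKO, at 220 and 204 CPM against 281 to 374 CPM (-0.68 ± 0.12, adjusted p = 0.00943), but under 2-fold. No collagen was called by edgeR or DESeq2 in Tet1-/- or DKO at D0. By edgeR 2 and 4 of 25 had an unadjusted p under 0.05, beside 1828 and 2081 of 14456 genes. Of all genes 0.00692% were called in Tet1-/-, all lower (0% higher), and 0.0346% in DKO (0.0138% higher and 0.0208% lower). The Tet2-/- calls fell from 4 to 2 without WT clone O4.13 and to 0 without either Tet2-/- clone. The TKO calls went from 3 to 1 without WT clone O4.13, to 6 without TKO replicate 1 (7.76% of all genes) and to 5 without TKO replicate 2 (5.77%), and to 0 when all 24 libraries shared 1 fit. Without TKO replicate 1 the calls of Col2a1 (log2 difference -0.80) and Col6a4 (-0.81) were lost. Of the 6 there, Col26a1 was kept, Col14a1, Col27a1 and Col5a3 were newly lower and Col1a1 and Col1a2 newly higher. Without TKO replicate 2 the 3 calls were kept and Col4a1 and Col4a2 were newly higher. Leaving out WT clone O4.2 lost the TKO call of Col26a1 and made Col4a1 and Col4a2 newly higher there (log2 differences 1.01 and 1.08).

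Whether the change over the 6 days itself differed from WT was tested as an interaction. In Tet2-/- the change was lower than in WT for 4 collagens and higher for 2 (5.13% and 3.54% of genes, 8.68% in all). The change of Col1a1 differed by -3.95 ± 0.87 on the log2 scale (adjusted p = 0.00805), and those of the other 3 were likewise lower, Col5a1 (-2.22 ± 0.52), Col23a1 (-4.94 ± 1.32) and Col4a2 (-1.67 ± 0.40). Col4a2 started from a higher level than in WT at D0, and its difference from WT at D6 was not called. Col2a1 rose more (2.1 ± 0.53, adjusted p = 0.0152), from its lower start at D0. Col6a5 changed by 1.03 ± 0.54 in Tet2-/- and by -1.57 ± 0.49 in WT, a difference of 2.60 ± 0.73. For the X-linked type IV pair the interaction was not called (Col4a5 -1.46, adjusted p = 0.333), with its D0 levels near the floor. Of the 6 calls, that of Col1a1 was kept under each alternative tried. Without D0 replicates 1 and 2 of Tet2-/- in turn there were 2 and 3 calls, likewise 2 and 3 without the D6 replicates, and 10 were called without WT clone O4.2 at D6, where 13.4% of all genes were called.

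In TKO the interaction was called for 4 collagens, 3 with a lower and 1 with a higher change than in WT (1.74% and 1.84% of genes, 3.58% in all). Col4a1 (-1.48 ± 0.36, adjusted p = 0.0234) and Col4a2 (-1.89 ± 0.40, adjusted p = 0.0129) had fitted changes above 0 in WT and below 0 in TKO (-0.68 ± 0.28 and -0.23 ± 0.31, neither called). Col4a1 in TKO replicates 1 and 2 was 217 and 128 CPM at D0 and 130 and 84.6 CPM at D6. Among the 10 endoderm markers, 4 (Gata4, Gata6, Sox17 and Pdgfra) had a lower change in TKO than in WT and none a higher one (median log2 difference -2.58 over the 10, beside -0.02 over all genes). The summed level of the 10 at D6 was 85.3 and 97.3 CPM in TKO beside 157 to 436 CPM in WT, and at D0 10.5 and 26.1 CPM beside 11.9 to 12.6 CPM. In Tet2-/- the D6 sum was 37.3 and 56.6 CPM. There Col4a1 and Col4a2 were not called against WT at D6, while the change of Col4a2 was lower than in WT. The part of endoderm cells in the TKO difference of Col4a1 and Col4a2 was not tested. Col8a2 changed less than in WT (-2.27 ± 0.54). Col17a1 fell in WT and was 0.336 and 0.290 CPM at D0 and 0.560 and 0.739 CPM at D6 in TKO, a difference in change of 2.55 ± 0.68 (adjusted p = 0.0337). No interaction was called by edgeR in Tet1-/- or DKO (0% of genes), and DESeq2 called 0 collagens. By edgeR 5 and 8 of 42 collagens had an unadjusted p under 0.05, beside 1200 and 1255 of 15639 genes. The TKO count ranged from 1 without D6 TKO replicate 2 to 7 without WT clone O4.2 at D6 (7.33% of all genes), and was 2 without WT clone O4.13 at D0 or without O4.1 or O4.13 at D6. With the clone as a block, 10 collagens were called in Tet2-/- and 7 in TKO, beside 10.3% and 5.01% of all genes, Col5a2 joining those with a larger rise in both.

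Genes that build, modify or bind collagen are counted beside all genes tested, of which 20.7% rose and 13.3% fell in WT over the 6 days, and 4.81% were higher and 9.45% lower in Tet2-/- than in WT at D6. Of 14 genes of procollagen processing and crosslinking, 13 were tested and 8 rose and 3 fell in WT over the 6 days. Pxdn, the peroxidasin that crosslinks type IV collagen, rose by 3.69 ± 0.20 and Bmp1, which trims procollagen ends, by 2.76 ± 0.25 on the log2 scale, while Pcolce, an enhancer of that trimming, fell by 2.82 ± 0.14. In Tet2-/- at D6, 4 of the 13 were lower than in WT, Bmp1 (-1.83 ± 0.32), Loxl4, Adamts3 and Tll1, and Adamts14, which also trims procollagen, was higher (1.32 ± 0.28). Among 19 hydroxylases and chaperones 4 rose and 1 fell in WT, a share of rises near that of all genes, led by Leprel1, a prolyl hydroxylase (5.31 ± 0.60), and Serpinh1, the collagen chaperone HSP47 (2.15 ± 0.25). Of the 19, 3 were lower in Tet2-/- at D6, among them Serpinh1 (-1.23 ± 0.33). Of 6 tested collagen receptors, Ddr1 and Itga11 rose and Ddr2 fell in WT, and Itga11 was lower in Tet2-/- (-1.88 ± 0.51).

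All 3 tested collagenases and gelatinases (Mmp2, Mmp9 and Mmp14) rose in WT, and none was called in Tet2-/- against WT at D6. From D0 to D6, Mmp2 alone rose in Tet2-/-, and the change of Mmp14, a membrane-bound collagenase, was lower than in WT in Tet2-/- (-1.20 ± 0.35, adjusted p = 0.0294) and TKO (-1.23 ± 0.36, adjusted p = 0.0472). Of 4 tested fibril-associated proteoglycans, Bgn and Dcn rose in WT, with fitted log2 changes of 4.07 ± 0.62 and 5.87 ± 1.15. Dcn had 0 counts at D0 in every genotype, so its fitted value does not measure the size of the rise. Bgn (-4.28 ± 0.91) and Ogn were lower in Tet2-/- at D6. All 8 listed proteoglycans summed to 0.701 and 1.34 CPM in the Tet2-/- clones at D6 and to at least 4.76 CPM in WT. These differences and the median of this list below therefore rest on low levels. The 9 partners of type IV collagen in basement membranes split in WT, where Lama5 and Lamb1 rose and Lama1 and Nid1 fell. Of the 9, Sparc alone was called between Tet2-/- and WT at D6 (-1.63 ± 0.20, adjusted p = 0.00410). The change over the 6 days was lower than in WT in Tet2-/- for 4 of the 9, Hspg2, Sparc, Lama5 and Agrn (5.13% of all genes), and for 0 in TKO. In the other lists this interaction was lower in Tet2-/- for Bmp1 among processing genes and for Serpinh1 and Leprel1 among chaperones and hydroxylases, and in TKO for Loxl1 (1.74% of all genes), with none higher in either. The medians of these lists in Tet2-/- against WT at D6 were -0.55 for processing and crosslinking, -0.19 for hydroxylases and chaperones, -0.01 for receptors, -0.75 for collagenases and gelatinases, -2.02 for proteoglycans and -0.68 for basement membrane partners, beside -0.03 over all genes.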

How the data were processed

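Poly(A) RNA was measured in 24 libraries of mouse ESC clones. Per the labels and the study's methods, the authors aligned paired-end reads with STAR to mm9 and deposited raw counts per RefSeq transcript row named by gene symbol, 1 table per day. The counting program is named in more than 1 way and its use of strand is not given in the sources used here. Table columns of no sample here numbered 0. The first row per symbol was used (8 of 44 collagens have more than 1 row). Counts were tested with edgeR 4.0.16 (R 4.3.3; TMM factors, filterByExpr with a minimum count of 10, glmQLFit and glmQLFTest), with a call at Benjamini-Hochberg adjusted p under 0.05 and more than 2-fold. All 24 libraries shared 1 fit (15639 genes) for changes between days and for their difference between genotypes. Knockouts were compared with WT in 12 libraries per day (15435 genes at D6, 14456 at D0). Standard errors are the log2 fold change divided by the square root of F. DESeq2 1.42.0, other scaling, no filter, the highest row per symbol, replicate blocks and leaving out each library were alternatives. The steps were tested on simulated data.

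Named collagens are those with a group mean of 10 CPM or more, those called between genotypes or in the difference of changes, and the 5 largest called rises and falls per genotype. Partner lists are given by counts, with up to 4 called genes of smallest adjusted p. The members and lists were chosen with earlier results of these data known. Samples of a group are separate clones of 1 parental line, so p-values measure the spread between clones. Counting intervals are exact, at 95%, and like the 3-count floors cover counting error only. With library totals in place of TMM the median log2 change of all genes from D0 to D6 moved from between -0.01 and 0.01 to between 0.14 and 0.21. The same clone at both days correlated in its deviations from group means with r of 0.0624 to 0.164 over 11 clones, the pairing coming from clone names in the labels. In Tet2-/-, DKO and TKO both clones of a genotype give the same r by construction, so these values are not all separate. Transcript lengths and positions are from GENCODE vM1 (mm9), promoters from RefSeq (GRCm38.p6), which held 35 of 44 collagens.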

Additional observations from a re-analysis of the deposited data

Results flagged for a closer look

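The change from D0 to D6 differed from that in WT for 6 collagens in Tet2-/- and 4 in TKO by the edgeR interaction test. On the log2 scale the differences in Tet2-/- were -3.9537 for Col1a1, -4.9355 for Col23a1, -2.2185 for Col5a1, -1.6693 for Col4a2, 2.1008 for Col2a1 and 2.6001 for Col6a5. In TKO they were -1.8883 for Col4a2, -1.479 for Col4a1, -2.2679 for Col8a2 and 2.5474 for Col17a1. Both sets use the same 6 WT libraries.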

How the results depend on the processing

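Of 133 calls of named collagens, 806 of 821 values under 7 alternatives with all libraries kept the call, 15 lost it and 0 reversed. With 1 library left out, 583 of 709 values kept it, 126 lost it and 0 reversed. Most knockouts had 2 clones and some D0 levels lay near the floor, and the part of either in the lost calls was not tested.

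Where edgeR called 0 collagens against WT at D6, DESeq2 called 1 (Tet1-/-), 2 (DKO) and 4 (TKO), and 0.301%, 1.24% and 3.32% of all genes. Without the filter 1 was called in TKO at D6 (0.455% of genes). With all 24 libraries in 1 fit there were 1 in DKO (0.627%) and 4 in TKO (3.29%) at D6, and 0 rather than 3 in TKO at D0 (1.99%). With the clone as a replicate block, the pairing gave 10 rather than 6 calls for the difference in change in Tet2-/- (10.3% of genes) and 7 rather than 4 in TKO (5.01%). The causes were not tested. Within a day the samples share only a number, and same-numbered knockout and WT clones correlated with r of -0.289 to 0.257 over 18 pairs.

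Leaving out 1 library gave 7 to 13 calls for the change over days in Tet2-/- (16 with all). Against WT at D6 it gave 0 to 17 for Tet2-/- (16) and 0 to 6 for TKO (0), and at D0 0 to 4 for Tet2-/- (4) and 1 to 6 for TKO (3). For the difference in change it gave 2 to 10 in Tet2-/- (6) and 1 to 7 in TKO (4). A group left with 1 library was assumed to vary like the others, so these counts say little about collagens.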
